A study of Mus musculus with 4 samples.

Results

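Ucn and Cartpt, the genes for urocortin and for the precursor of the CART peptides, are 2 of the 32285 genes measured in 4 brain sections, and they were found in the files by their symbols. Both were chosen because their summed counts were far higher in the knockout than in the control sections, so their whole-section levels below are a description with no test. Urocortin belongs to the corticotropin-releasing factor (CRF) family and acts on the CRF receptors, while CART peptides act on feeding, reward and stress circuits. In rodents the centrally projecting Edinger-Westphal nucleus, a small midline cell group of the midbrain, is the main site of urocortin neurons in the brain. These neurons also make CART and cholecystokinin and respond to stress and feeding, and they are distinct from the cholinergic preganglionic neurons of the same name. CART is made elsewhere too, most of all in the arcuate nucleus of the hypothalamus, in the nucleus accumbens and in parts of the cortex.

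The sections came from a mouse model of cerebral cavernous malformations, a disease of leaky, enlarged brain vessels. Control mice were Pdcd10fl/fl, and knockout mice were Slco1c1-iCreERT2;Pdcd10fl/fl, in which a tamoxifen-regulated Cre recombinase removes Pdcd10, also called CCM3, from brain endothelial cells. All received 50 µg of 4-hydroxy-tamoxifen on postnatal day 1, controls included, and were studied at postnatal day 65, with 2 sections of 10 µm per group. Each section was laid on a Visium slide, whose barcoded spots each capture RNA from a small region that can hold several cells. The oxygen given to the mice is not settled by the labels. All titles and the study's design say normoxia, the treatment label says normoxia for controls and hypoxia for knockouts, and the treatment protocol states 12% oxygen for 2 days for every mouse. Oxygen, genotype and the level at which each brain was cut, which the labels do not give, cannot be told apart here. Nothing says that the sections of a group came from separate mice, so the spread between them may be technical.

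The libraries held between 50148764 and 74467027 unique molecular identifiers (UMIs, 1 per captured RNA molecule), and between 2931 and 4599 of 4992 barcodes had at least 1000 UMIs and were kept. Median totals per kept spot were 15326 and 16226.5 UMIs for control 1 and control 2, against 8158 and 13164.5 for knockout 1 and knockout 2. Pdcd10 itself stood at 89.8 and 79.1 UMIs per 1000000 UMIs of the section (CPM) in controls and 81.4 and 86.2 CPM in knockouts, which checks little because it is deleted in endothelial cells alone. All 4992 barcodes were shared by the 4 libraries, since each library lists the full set of its slide. UMIs per barcode correlated at r = 0.660 between the knockout sections over 4329 shared kept barcodes, at 0.448 between the controls over 2719, and between -0.0004 and 0.318 across groups. The bulk sum of a section cannot tell more cells of a type from more RNA per cell.

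Ucn lies on mouse chromosome 5 at 31137989 to 31138895 and Cartpt on chromosome 13 at 99898483 to 99910179 (GRCm38.p6). Their promoters are shown because the genes were high in the same spots, as described below. Both sequences are RefSeq windows of 300 bases, 250 before and 50 after an annotated start, on the minus strand. The Ucn window spans the upper end of the gene, at 31138895. The Cartpt window, 99900634 to 99900933, lies inside the gene's span, which runs on to 99910179. The start used for Cartpt is therefore not the outermost end of its span. Capitals mark the palindromic cAMP response element, TGACGTCA, and the core of a TATA box, TATAA.

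Ucn, chr5:31138846-31139145: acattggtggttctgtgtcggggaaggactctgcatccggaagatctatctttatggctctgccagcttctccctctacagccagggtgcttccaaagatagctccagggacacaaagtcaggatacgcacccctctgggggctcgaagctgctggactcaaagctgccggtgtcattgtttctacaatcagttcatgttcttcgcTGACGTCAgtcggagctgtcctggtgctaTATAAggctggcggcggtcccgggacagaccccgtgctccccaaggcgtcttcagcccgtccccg

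Cartpt, chr13:99900634-99900933: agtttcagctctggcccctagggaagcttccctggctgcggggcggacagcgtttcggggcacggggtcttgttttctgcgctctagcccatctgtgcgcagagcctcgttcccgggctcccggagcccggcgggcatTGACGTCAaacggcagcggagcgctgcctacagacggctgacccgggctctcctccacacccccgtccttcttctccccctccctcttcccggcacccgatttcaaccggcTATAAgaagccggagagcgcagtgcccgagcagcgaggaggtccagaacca

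The full cAMP response element began 44 bases before the start used for Ucn and 112 bases before that used for Cartpt. It was found in 588 of 32851 promoter windows of this length, 1.79%, searched on both strands. The letters TATAA began 15 bases before the start used for Ucn and 1 base before that used for Cartpt. Of all windows, 24.9% held them on either strand. A match describes the letters and shows no binding.

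Ucn was nearly undetected in the control sections and plain in both knockout sections. Control 1 held 17 Ucn UMIs and control 2 held 14, against 757 in knockout 1 and 1236 in knockout 2. As levels these were 0.344 CPM (95% exact Poisson interval 0.200 to 0.550) and 0.219 CPM (0.120 to 0.368) in the controls. The knockouts stood at 14.2 CPM (13.2 to 15.3) and 16.7 CPM (15.8 to 17.6). The group means were 0.281 ± 0.0882 CPM for controls and 15.4 ± 1.73 CPM for knockouts (SD, n = 2 each). The intervals cover counting error only. In the fit over all 17546 genes tested, described further on, 38.4% were called between the groups and 20.1% were called higher in the knockouts, so differences of some size were common.

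Cartpt was abundant in every section and higher in the knockouts. Its counts were 2088 and 1931 UMIs in the controls, and 7263 and 15919 UMIs in the knockouts. The levels were 42.2 and 30.2 CPM in controls against 136 and 215 CPM in knockouts, a ratio of group means of 4.85. The knockouts differed from each other by more than the whole control level, at 176 ± 55.4 CPM against 36.2 ± 8.49 CPM in controls (SD, n = 2 each).

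The knockout counts of both genes were packed into very few spots. In knockout 1 the highest spot held 138 Ucn UMIs and the next 86, and in knockout 2 these were 205 and 68. No control 1 spot held more than 1 Ucn UMI, and no control 2 spot more than 2. The 10 highest spots carried 57.9% and 55.3% of all Ucn UMIs of the knockouts, and 50% lay in 7 spots of knockout 1 and 9 of knockout 2. Among genes with a total within 2-fold of that of Ucn, 4641 in knockout 1 and 4803 in knockout 2, the median share of the 10 highest spots was 4.41% and 3.49%. None of those genes was as concentrated as Ucn in either knockout section.

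Cartpt was as narrowly placed in the knockouts and broader in the controls. Its highest spot held 1216 UMIs in knockout 1 and 2295 in knockout 2, against 105 and 51 in the controls. The 10 highest spots carried 48.1% and 53.5% of Cartpt in the knockouts, and 24.8% and 19.9% in the controls. To reach 50% of Cartpt took 12 and 9 spots in the knockouts but 49 and 70 in the controls. Control Cartpt was still more concentrated than most genes of like count, with 7 of 5000 and 8 of 5275 genes at or above it. Cartpt UMIs were also spread thinly over every section: 21.7% and 17.6% of kept control spots and 17.6% and 25.6% of knockout spots had at least 1.

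**Figure D1:**
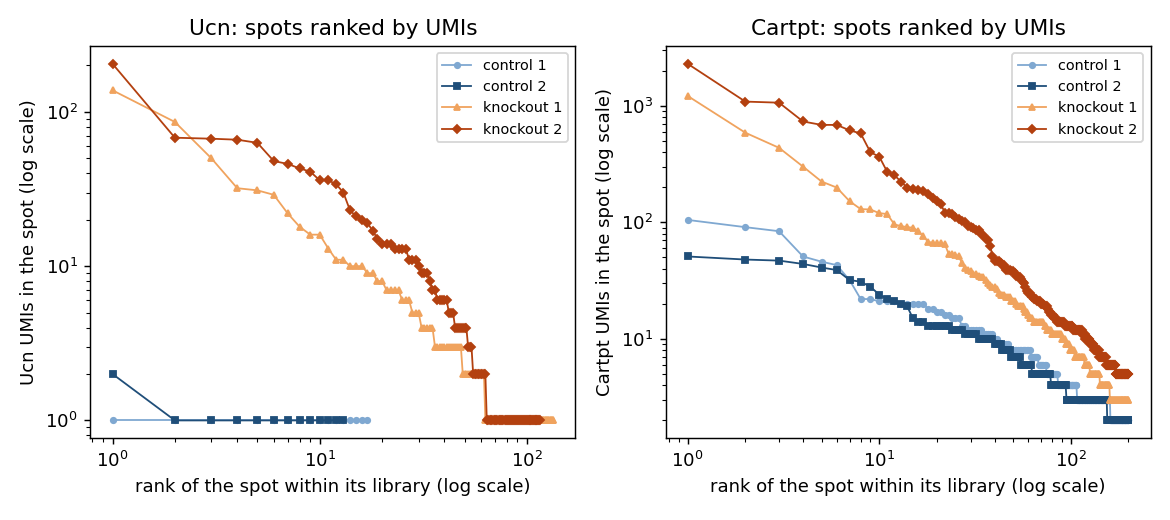
Spots of each library ranked by their UMIs of Ucn (left) and Cartpt (right), rank and UMIs on log scales; for Cartpt the 200 highest spots are drawn. Knockout curves start at 138 and 205 Ucn UMIs and at 1216 and 2295 Cartpt UMIs and fall steeply, while the controls never pass 2 Ucn UMIs and start at 105 and 51 Cartpt UMIs.

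A Ucn spot was defined as a kept spot with at least 3 Ucn UMIs. There were 48 in knockout 1 (1.04% of kept spots), 54 in knockout 2 (1.21%) and none in the controls. They held 86.8% and 94.3% of the Ucn UMIs of their sections, with a median of 6.5 and 11 Ucn UMIs per spot. Ucn spots were deeper than the rest, with median totals of 24576 and 21278 UMIs against 8042 and 13032.5 in other spots. When every spot of at least 5000 UMIs was thinned to 5000, 2.30% and 1.96% of knockout spots still had a Ucn UMI, against 0.221% and 0.0391% of control spots. Thinning left out 664 and 1539 control spots and 1647 and 1004 knockout spots below that depth. Before thinning the shares were 2.91% and 2.57% in knockouts and 0.580% and 0.317% in controls.

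To show how often a Ucn UMI turned up where the gene is not known to be made, a class rich in another gene was counted. The 10% of spots richest in Slc17a7, the vesicular glutamate transporter of cortex and hippocampus, had a Ucn UMI in 2 of 294 and 0 of 410 spots in the controls and 1 of 460 and 3 of 448 in the knockouts. Their median depth was 4410.5, 2221, 3763 and 7460.5 UMIs in the same order. None of them had 3. Of all kept control spots, 0.580% and 0.317% had a Ucn UMI, but at a higher median depth of 15326 and 16226.5 UMIs. With so few spots and unlike depths, the comparison cannot show whether the control UMIs are background.

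The barcodes of the Ucn spots overlapped between the knockout slides. Of 71 barcodes that were a Ucn spot in either knockout section, 31 were one in both. The barcode of the highest Ucn spot of knockout 1 held 13 Ucn UMIs in knockout 2, and that of knockout 2 held 8 in knockout 1. The highest spots were therefore different barcodes. None of the 17 and 13 control spots with a Ucn UMI lay at a barcode of a knockout Ucn spot. With 71 such barcodes among 4992, so few control spots would seldom meet one, so this shows little. Spot positions were not used here, and where the Ucn spots lay was not determined.

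Cartpt and Ucn shared their spots in the knockouts. All 48 and 54 Ucn spots contained Cartpt, with a median of 52 and 101.5 Cartpt UMIs and a lowest of 1 and 7. The highest spot was the same for both genes in each knockout section. All 20 of the highest Cartpt spots were Ucn spots in each of them, and in the controls 0 of the 20 had any Ucn UMI. Ucn spots stood at 4556 and 10239 Cartpt CPM against 39.4 and 43.7 CPM in the other spots of the same sections. That is 116 and 235 times as much, or a mean log2 ratio of 7.36. After thinning to 5000 UMIs per spot the ratios were 125 and 229.

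The more Ucn a spot held, the higher its Cartpt level was in both knockout sections. Spots with no Ucn UMI held 31.9 and 40.2 Cartpt CPM. Spots with 2 Ucn UMIs, just outside the threshold, held 600 and 948 CPM, and spots with 3 to 5, just inside, held 1291 and 2382 CPM. The 7 and 16 spots with 20 or more Ucn UMIs held 17200 and 19892 CPM, close to each other although the sections differed overall. Within the Ucn spots the rank correlation of the genes was 0.83 over 48 spots and 0.82 over 54, as a description, since spots of a section share its library and both counts grow with depth. The median spot had 7.92 Cartpt UMIs per Ucn UMI in knockout 1 and 9.19 in knockout 2.

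**Figure D2:**
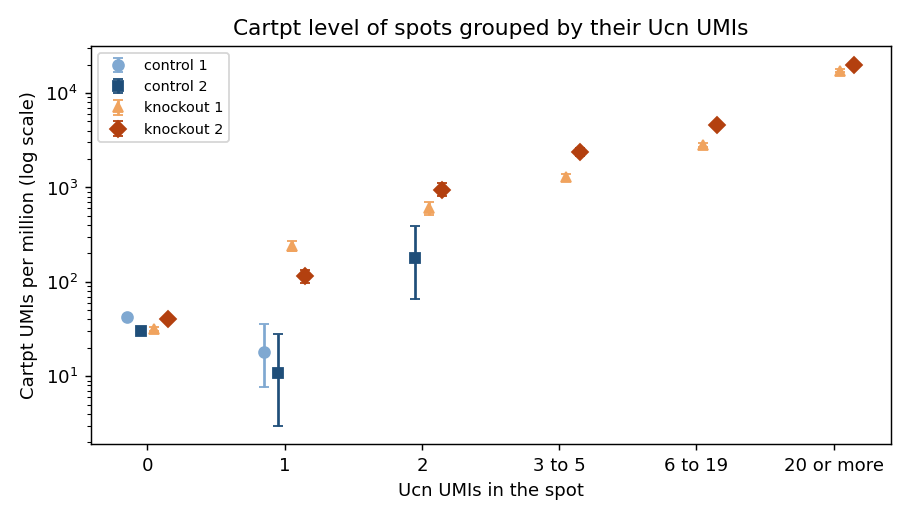
Cartpt level in CPM (log scale, with 95% exact Poisson intervals for counting error) in spots grouped by their Ucn UMIs, for each library. The knockout values climb from 31.9 and 40.2 at no Ucn UMI to 17200 and 19892 at 20 or more, while control spots exist up to 2 Ucn UMIs, at 18.1 and 10.9 with 1 Ucn UMI and 179 (65.6 to 389) in the only spot with 2.

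Control spots with 1 Ucn UMI were not richer in Cartpt than the rest. The 17 control 1 spots with 1 Ucn UMI held 18.1 Cartpt CPM (95% interval 7.80 to 35.6) against 42.4 in spots without Ucn. In control 2, 12 spots with 1 Ucn UMI held 10.9 CPM (2.97 to 27.9) against 30.3, and the only spot with 2 Ucn UMIs held 6 Cartpt UMIs, 179 CPM (65.6 to 389). In the knockouts the 72 and 52 spots with 1 Ucn UMI held 241 and 114 CPM, above the spots without Ucn, so single Ucn UMIs there were not background alone.

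**Figure D3:**
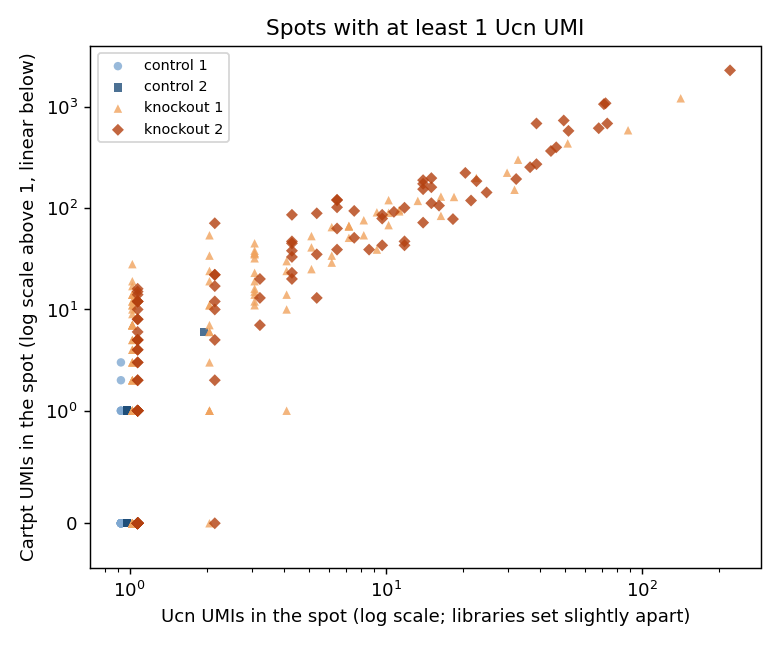
Cartpt against Ucn UMIs for every kept spot with at least 1 Ucn UMI, by library; both axes are logarithmic, the Cartpt axis linear below 1. Knockout spots run up to 1216 and 2295 Cartpt UMIs along 1 band, with the control spots all at 1 or 2 Ucn UMIs and at most 6 Cartpt UMIs in the spot with 2.

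The Cartpt difference between the groups lay in the spots with Ucn. With every spot that had a Ucn UMI left out, Cartpt was measured at 42.4 and 30.3 CPM in control sections and at 31.9 and 40.2 CPM in knockout sections, and the ratio of group means moved from 4.85 to 0.991. The groups then overlapped. Knockout spots with no Ucn reached at most 28 and 47 Cartpt UMIs, compared with 105 and 51 in controls. At least 10 Cartpt UMIs were found in 93 and 125 knockout spots, of which 47 and 53 were Ucn spots and 29 and 59 had no Ucn UMI. In controls the same cutoff gave 41 and 39 spots.

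To describe what else the Ucn spots contained, their counts were summed per knockout section and compared with the other spots of that section. The edgeR quasi-likelihood test, with the section as a block and adjusted p-values over 16257 genes, called 4050 genes, 24.9% of those tested, 1873 higher (11.5%) and 2177 lower (13.4%). Both classes came from the same 2 sections, and with 2 sections the test leans on the spread shared across genes. Its log2 changes compare Ucn spots with the rest of a whole section, which includes cortex and hippocampus. Every adjusted p from here on is from an edgeR fit of this kind.

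The 20 largest rises, among genes with at least 20 UMIs in the Ucn spots, included 8 transcription factors, named here without a test of them as a group. Nkx6-1, a homeobox factor of ventral neural progenitors and some midbrain neurons, gave 24 and 37 UMIs in the Ucn spots. That was 21.0 and 29.7 CPM against 0.538 and 0.576 CPM elsewhere, a log2 change of 5.57 (SE 0.43, adjusted p = 2.1e-34). The Ucn spots, 1.04% and 1.21% of spots, held 46.2% and 46.8% of all Nkx6-1 UMIs. Foxa2 and Foxa1, forkhead factors of the floor plate and of midbrain dopamine neurons, rose by 4.14 and 3.06. Foxa2 stood at 19.2 and 36.2 CPM against 1.57 and 1.69 CPM. En2, an engrailed factor of the midbrain and anterior hindbrain, rose by 3.54, and its relative En1 by 1.97. Lmx1a, another factor of ventral midbrain progenitors, rose by 3.52, Foxd2 by 4.57, Ebf2 by 2.88 and Dmrta2 by 2.64.

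The other rises were genes of varied roles. Nmu, the peptide neuromedin U, had the highest change of the 20 at 5.72 (adjusted p = 2.69e-19) on few UMIs, 5 in knockout 1 and 27 in knockout 2. C1ql1, a secreted C1q-like synapse organiser, stood at 121 and 238 CPM against 9.93 and 12.5 CPM, a log2 change of 4.05 (SE 0.12, adjusted p = 5.45e-179). C1ql1 was present in 75.0% and 96.3% of Ucn spots and in 8.94% and 11.7% of the others. Calb2, the calcium-binding protein calretinin, rose by 2.45, at 524 and 638 CPM against 90.9 and 134 CPM. Npb, the peptide neuropeptide B, rose by 2.59, C1ql4 by 2.84, and Gabrq, a GABA-A receptor subunit, by 2.46. Postn, the matrix protein periostin, rose by 2.77, Chodl by 2.67, Tstd1 by 3.08 and Pgr15l, an orphan receptor, by 3.30.

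Immunoglobulin genes were raised in 1 of the 2 sections. Igha, the heavy chain constant region of IgA, gave 74 UMIs in the Ucn spots of knockout 1 and 1 in those of knockout 2. Igkc, the kappa light chain constant region, gave 111 and 2. In knockout 1, 56.2% of Ucn spots had an Igha UMI and 62.5% an Igkc UMI, against 1.36% and 3.14% of its other spots. The pooled changes of 4.59 and 3.82 rest on that section, and neither was called by DESeq2.

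**Figure D4:**
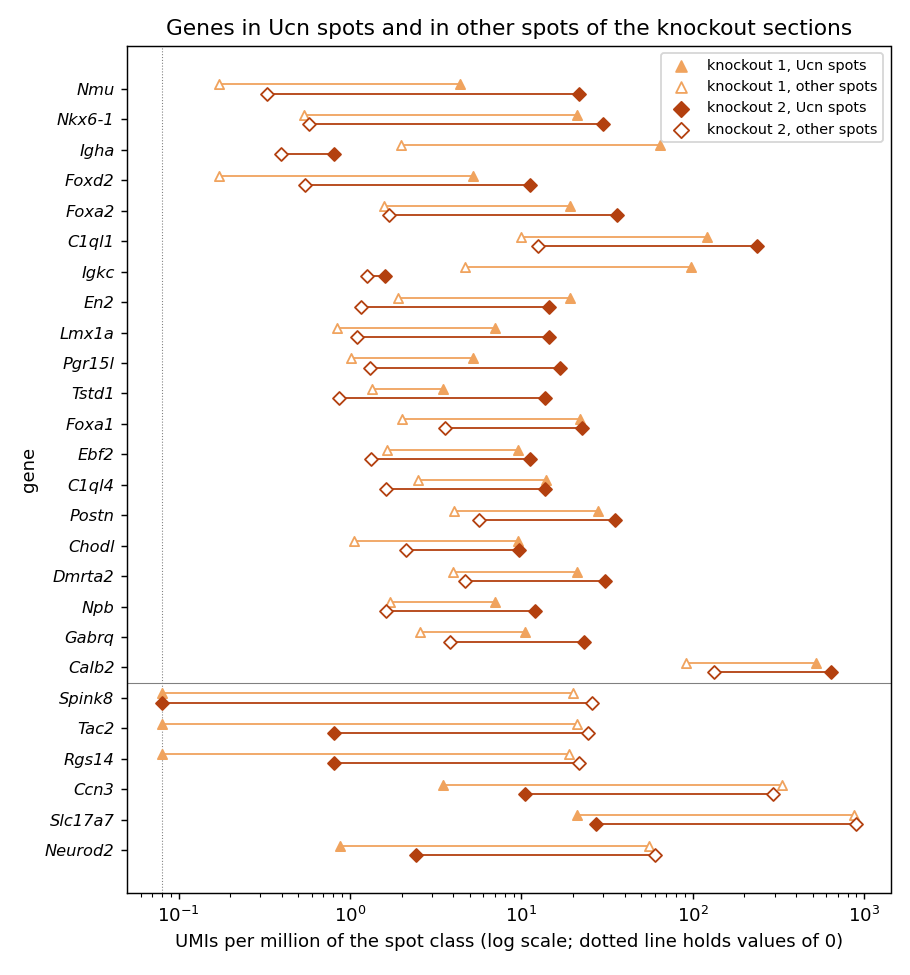
Level of the 20 largest rises and the 6 largest falls of the Ucn spots, in CPM on a log scale: filled symbols for Ucn spots, open symbols for the other spots of the same knockout section. Nkx6-1, Foxa2 and C1ql1 are raised alike in both sections, while Igha and Igkc are raised in knockout 1 alone, at 64.7 and 97.0 against 0.804 and 1.61 in knockout 2.

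Over whole sections, 2 of the 20 were called higher in the knockouts, 4 lower and 14 were not called, beside 20.1% and 18.3% of all genes called higher and lower. Nkx6-1 had 0.667 and 1.39 CPM in controls and 0.977 and 1.07 CPM in knockouts. C1ql1 fell by 0.87 on the log2 scale, at 23.7 and 25.8 CPM in controls and 12.3 and 16.3 CPM in knockouts (adjusted p = 0.00232). Calb2 fell by 0.63 (adjusted p = 0.0123). Nmu and Postn were the 2 called higher, by 1.81 and 1.42. The Ucn spots held 5 of 14 and 27 of 51 of the Nmu UMIs of their sections.

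The transmitter of the Ucn spots was read from the fixed lists. Slc17a6, the vesicular glutamate transporter of subcortical neurons, rose by 1.94 (SE 0.09, adjusted p = 3.9e-84), with 326 and 288 CPM against 88.0 and 79.1 CPM elsewhere. The GABA genes Slc32a1 and Gad2 rose by 0.50 and 0.49, and Gad1 stood at 313 and 292 CPM against 307 and 319 CPM (adjusted p = 0.95). Slc6a5, the glycine transporter of hindbrain neurons, had no UMI in the Ucn spots and was at least 10.8-fold lower there, with the floor set at 3 UMIs over both sections. Slc17a7 fell by 5.12. It was among the 6 largest falls with Spink8, Tac2, Rgs14, Ccn3 and Neurod2, the majority of them genes of hippocampus and cortex. Spink8 had no UMI in the Ucn spots and was at least 18.3-fold lower. DESeq2 called neither Slc6a5 nor Spink8.

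Cholinergic motor markers were at 0 or low. Of 7 cranial motor and cholinergic genes, 5 had no UMI in any Ucn spot: Chat, the acetylcholine-synthesising enzyme, Slc18a3, Phox2a, Isl1 and Tbx20. The summed level of the list was 5.24 and 2.41 CPM in the Ucn spots against 10.4 and 14.6 CPM in the others, and Prph fell by 1.96. Slc5a7, the choline transporter, gave 1 and 2 UMIs in the Ucn spots and was not called, at 0.874 and 1.61 CPM against 0.653 and 0.549 CPM. Chat was at most 0.0675 CPM in any whole section, so these sections held hardly any cholinergic motor RNA to compare with. No UMI of any of 11 Hox genes of the hindbrain was seen in the Ucn spots. Over the whole knockout sections these genes summed to 0.0188 and 0.0540 CPM, too little for a 0 in so few spots to tell anything. Of 6 listed genes of serotonin neurons, 4 were tested and 3 were called higher, beside 11.5% of all genes. These 3 were Ddc and Slc18a2, which all monoamine neurons use, and Gata3, a transcription factor. The call of Slc18a2 rests on knockout 1, as given below. The markers that define serotonin neurons were at 0 or low, with Slc6a4 and Fev at 0 and Tph2 at 1 and 2 UMIs (adjusted p = 0.909). Slc6a4 and Fev stood at a mean of 0.0988 and 0.221 CPM in the other spots, below the floor of 1.26 CPM set by 3 UMIs. Their 0 therefore cannot show a fall. Of 6 noradrenaline genes the same Ddc and Slc18a2 were called higher, while Slc6a2 had no UMI and Dbh had 1 and 0. Slc6a2 stood at a mean of 0.0343 CPM in the other spots, also below that floor. The summed serotonin list stood at 246 and 111 CPM in the Ucn spots against 116 and 124 CPM in the others. For the noradrenaline list these sums were 339 and 123 CPM against 154 and 181 CPM. Both sums were thus higher in the Ucn spots of knockout 1 alone.

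Dopamine markers were found in the Ucn spots of knockout 1 more than in those of knockout 2. Th, the rate-limiting enzyme of dopamine synthesis, stood at 102 and 24.1 CPM in the Ucn spots against 44.7 and 62.3 CPM in the others. Slc6a3, the dopamine transporter, stood at 143 and 12.1 CPM against 62.0 and 78.6 CPM. Neither was called (adjusted p = 0.151 and 0.498). The summed level of the 7 listed genes was 822 CPM against 417 CPM in knockout 1, and 379 against 451 CPM in knockout 2. Within the Ucn spots of knockout 1 the dopamine genes were low where Ucn was high: Slc6a3 was at 263 CPM with 3 to 5 Ucn UMIs, 92.3 CPM with 6 to 19, and 27.6 CPM with 20 or more. Ddc, Aldh1a1, Slc18a2 and En1 were the 4 of 7 called higher, beside 11.5% of all genes. The pooled call of Slc18a2, the vesicular monoamine transporter, rests on knockout 1, at 97.9 CPM against 40.6 CPM, as in knockout 2 it stood at 16.9 CPM against 43.2 CPM.

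Of 5 genes that urocortin neurons are reported to share, Slc17a6 and Ghsr rose, Cck fell, and Nucb2 and Lepr were not called. Ghsr, the ghrelin receptor, gave 5 and 2 UMIs in the Ucn spots, with a change of 3.06 (adjusted p = 0.00954). Lepr, the leptin receptor, gave 1 and 1. Cck, cholecystokinin, was lower in the Ucn spots than in the rest of the section, at 329 and 498 CPM against 530 and 617 CPM, a fall of 0.42 (adjusted p = 1.87e-05). By Ucn count it was not flat: spots with 3 to 5 Ucn UMIs held 241 and 239 Cck CPM, and spots with 20 or more held 740 and 844 CPM. Over the same steps Slc17a6 went from 297 and 279 CPM to 287 and 236 CPM, so it did not climb with Ucn.

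Of 10 genes of peptide processing and secretory granules, 5 rose and 4 fell, beside 11.5% and 13.4% of all genes called higher and lower. Their median log2 change was 0.25 against -0.06 over all genes tested. Pcsk1, a convertase that cuts peptide precursors, rose by 1.54, at 38.5 and 48.2 CPM against 15.1 and 16.0 CPM. Scg2, a granin of secretory granules, rose by 0.85, Chga by 0.63, Pcsk1n by 0.45 and Scg5 by 0.40. Pcsk2 fell by 0.40, Scg3 by 0.37, Cpe by 0.31 and Chgb by 0.51, and Pam was not called.

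The rest of the urocortin system was sparse. In the Ucn spots Ucn2 and Ucn3, the other urocortins, had no UMI, and Crh, corticotropin-releasing factor itself, had 2 and 5. None of the 4 tested members was called there. Over whole sections 0 of these 4 rose and 3 fell, beside 20.1% and 18.3% of all genes called higher and lower. Crhr1, the receptor with high affinity for both CRF and urocortin, was at 16.3 and 15.2 CPM in controls and 9.07 and 8.07 CPM in knockouts, a fall of 0.95 (adjusted p = 0.000572). Crh fell by 0.68 and Crhbp, the binding protein that holds CRF and urocortin, by 0.45. Crhr2, the other receptor, had 1.27 and 1.14 CPM in controls and 1.09 and 1.35 CPM in knockouts.

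Glial markers moved with the Ucn spots, beside 11.5% of all genes called higher there and 13.4% called lower. All 7 oligodendrocyte genes rose, with a median of 1.22 and a summed level of 11759 and 7303 CPM against 4582 and 3298 CPM. Over whole sections the same 7 fell in the knockouts, with sums of 7838 and 11132 CPM in controls and 4736 and 3365 CPM in knockouts. Of 10 reactive astrocyte genes, all of which rose in the knockout sections, 9 were lower in the Ucn spots than in all other spots. Their sum was 433 and 343 CPM in the Ucn spots and 1460 and 1410 CPM in the others, which is still above the 135 and 152 CPM of whole control sections. Of 9 microglia and phagocyte genes 7 fell, and of 8 endothelial genes 0 were called, with sums of 372 and 302 CPM against 371 and 349 CPM. Of 7 stress and activity genes found in the files 4 fell, among them Egr1 by 2.24, and Fos stood at 20.1 and 30.5 CPM against 22.1 and 21.7 CPM (adjusted p = 0.35). The part of these cells and of depth in the result was not tested.

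Genes that lie beside Ucn could share its reads, which was not tested. Trim54, which ends 362 bases from Ucn, gave 3 and 9 UMIs in the Ucn spots, 60.0% and 64.3% of its UMIs in those sections. Its log2 change of 6.51 (adjusted p = 1.09e-08), above that of Nmu, rests on these 3 and 9 UMIs and is uncertain. Mpv17, 1767 bases away on the other side, was lower in the Ucn spots, at 43.7 and 41.0 CPM against 56.1 and 60.4 CPM. Its log2 change there was -0.40 (adjusted p = 0.0417). In whole sections it stood at 55.8 and 60.1 CPM in knockouts and 59.5 and 51.1 CPM in controls. The nearest coding neighbours of Cartpt, Mccc2 and Map1b, lie 38352 and 381880 bases away.

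The genes most like Ucn were ranked by their Pearson correlation with it across spots of each knockout section, on log2(UMIs per 10000 + 1), over 14661 genes. Cartpt came first at 0.621 over 4599 spots and 0.724 over 4472, and C1ql1 next at 0.233 and 0.430. Nkx6-1, Foxa2, Sncg, Calb2, Slc17a6 and Dlk1 followed, with means from 0.253 down to 0.183. Spots share the library and its depth, so these are descriptions. For Cartpt in the knockouts, Ucn was followed by Slc17a6 (mean 0.352), C1ql1, Sncg, Adcyap1, Calb2, Lhx1os and Ptgds. For Cartpt in the controls, over 14132 genes, the order was Agrp (mean 0.441), Gpx3, Crabp1, Irs4, Baiap3, Gabre, Nkx2-1 and Pomc.

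Cartpt marked other cells in the controls. Cartpt-rich spots were taken as the 1% of kept spots with the highest Cartpt share and at least 3 Cartpt UMIs, which gave 24 and 23 spots in controls and 46 and 45 in knockouts. They held 34.6% and 26.4% of Cartpt in controls and 72.1% and 78.0% in knockouts. Of the knockout ones 38 and 44 were Ucn spots, and of the control ones 0 had a Ucn UMI. In the fit with genotype, spot class and section, the class effect was called for 2895 genes in controls (17.4%) and 3200 in knockouts (19.3%). It differed between the groups for 1915 genes (11.5%), 1149 higher in knockouts (6.91%) and 766 lower (4.61%).

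Control Cartpt-rich spots carried genes of the arcuate hypothalamus. Agrp, the appetite-stimulating agouti-related peptide, stood there at 1002 and 1132 CPM against 6.17 and 8.12 CPM in other spots, a log2 change of 7.17 (adjusted p = 2.95e-143). In the knockouts' Cartpt-rich spots it was at 0.977 and 0.963 CPM. Pomc, the precursor of the appetite-suppressing melanocortins, which arcuate CART neurons also make, stood at 279 and 576 CPM in controls against 9.77 and 8.67 CPM in knockouts. Its change between spot classes was 4.14 in controls, and the difference between the groups was -3.62 (adjusted p = 9.64e-23). Crabp1, Rax, Calcr, Gabre, Asb4, Otp and Nkx2-1 completed the 8 largest rises in controls, from 6.86 for Crabp1 to 4.80 for Nkx2-1, a factor of ventral hypothalamus. Of 13 hypothalamic peptide genes, 9 were higher in the control Cartpt-rich spots (6.34% of all genes were) and 0 in those of the knockouts (8.68% of all genes were). The split was less clear for hypothalamic transcription factors, of which 4 of 6 listed were tested. Of these 4, 3 were higher in the control Cartpt-rich spots and 2 in those of the knockouts. In the Ucn spots 2 of the 4 were also higher, beside 11.5% of all genes.

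Over whole sections, Agrp was at 16.7 and 18.2 CPM in controls and 0.488 and 0.499 CPM in knockouts, so it fell by 5.21 on the log2 scale (adjusted p = 2.8e-06), and Pomc fell by 2.05. Npy, which arcuate neurons also make with Agrp but cortex makes too, rose by 1.15, and of the 12 tested peptides 3 rose and 4 fell, beside 20.1% and 18.3% of all genes. Slc6a5 ran the other way, at 0.344 and 0.266 CPM in controls and 12.1 and 14.4 CPM in knockouts. Markers of these regions thus moved with the genotype, and genotype and the level of the section cannot be told apart.

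Knockout Cartpt-rich spots carried the genes of the Ucn spots. As 38 of 46 and 44 of 45 of them were Ucn spots, this likeness was largely set by the overlap. Nkx6-1, Foxa2 and C1ql1 changed by 5.35, 4.00 and 3.98 there, and in controls by -0.25, 0.23 and 0.10, none of which was called. Igha, Igkc, Pgr15l, Otp and Dmrta2 made up the 8. Pgr15l was raised in both groups, by 4.01 in controls and 3.60 in knockouts, with a difference of -0.41 (adjusted p = 0.811). Adcyap1, the peptide PACAP, was likewise raised in both, by 1.99 and 2.04, with a difference of 0.05 (SE 0.19, adjusted p = 0.947). Pcsk1 was raised by 0.90 in controls and 1.60 in knockouts.

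**Figure D5:**
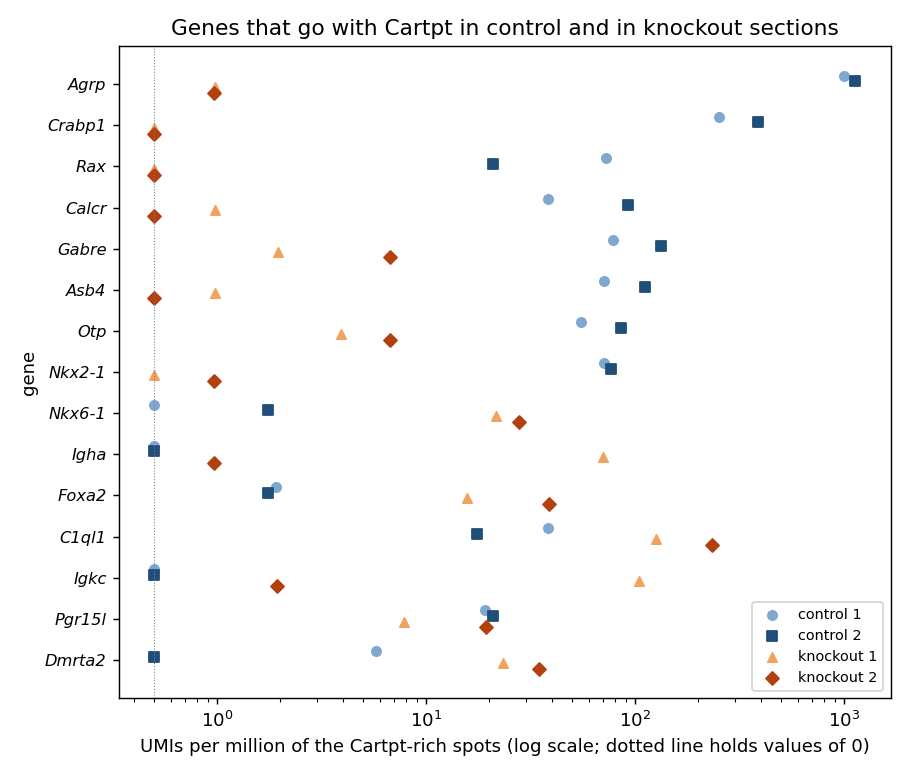
Level in the Cartpt-rich spots of each library, in CPM on a log scale, of the 8 genes most raised there in controls and the 8 most raised in knockouts (15 genes, as Otp is in both). Agrp stands at 1002 and 1132 in controls and 0.977 and 0.963 in knockouts, Nkx6-1 at 0 and 1.75 in controls and 21.5 and 27.9 in knockouts, and Pgr15l overlaps between the groups.

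The remaining Cartpt of the knockouts was examined by drawing the class from spots with no Ucn UMI, an alternative chosen after seeing the data. This gave 24, 23, 26 and 26 spots, with Cartpt at 1378 and 893 CPM in controls and 696 and 775 CPM in knockouts. The knockout spots then held Nkx2-1 at 71.1 and 55.4 CPM, near the 70.6 and 77.0 CPM of controls, with a difference of -0.22 (adjusted p = 0.904). Foxb1, a factor of the posterior hypothalamus and mammillary region, stood at 84.2 and 119 CPM, against 80.2 and 29.8 CPM in controls. Agrp remained at 3.74 and 1.35 CPM and Pomc at 11.2 and 12.2 CPM, differences of -4.83 and -3.29. Slc17a6 was higher in these spots of both groups, by 0.84 in controls and 2.28 in knockouts, with a difference of 1.44 (adjusted p = 1.17e-12).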

How the data were processed

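The authors deposited UMI counts without normalisation, 1 matrix of 32285 genes by 4992 spot barcodes for each of 4 libraries. The genome build mm10 and the tool Space Ranger are named in the submitters' processing notes, and Cell Ranger 4 is named as the writing software in the matrices, per the file headers. The release of the gene annotation is not given in the sources used here.

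Spots with at least 1000 UMIs were kept, holding 98.6% to 99.5% of UMIs. CPM is UMIs per 1000000 UMIs of the summed spots. Groups follow the genotype label. Counts summed per library, or per library and spot class, were tested in R 4.3.3 with edgeR 4.0.16 (TMM, filterByExpr, quasi-likelihood test, Benjamini-Hochberg over all genes tested, threshold 0.05). Ucn spots were compared within the 2 knockout libraries with the library as a block, and the Cartpt-rich class was tested as an interaction with genotype. DESeq2 1.42.0 and other spot thresholds, depths, filters and left-out libraries were alternatives. The replicate numbers were not used to pair the libraries in the main fit. The correlation of deviations between same-numbered libraries was -0.109. With 2 libraries per group this single value cannot show whether they are paired. Intervals are 95% exact Poisson intervals. The genes and lists were chosen with earlier results of these data known. Named genes are all members of the lists, the 20 largest rises and 6 largest falls of the Ucn spots, the 8 largest Cartpt-rich changes per direction or group, and the 8 genes most like each member. For rises at least 20 UMIs in Ucn spots were needed, for falls 20 CPM elsewhere, for Cartpt-rich genes 50 UMIs in the class, and predicted symbols were skipped. The listed gene Ddit3 was not analysed here. Another listed gene is not reported here, and its lists are counted without it. On simulated counts the fits recovered 85% (whole section), 76% (Ucn spots) and 39% (Cartpt-rich difference) of genes changed by 1 on the log2 scale, and 98%, 100% and 94% of those changed by 2. Of the calls, 6.15%, 4.35% and 5.67% were false. The changed genes all lay above a floor on counts, and every gene was given the same low dispersion. The rates therefore do not carry over to genes of few UMIs or of larger spread.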

Additional observations from a re-analysis of the deposited data

Results flagged for a closer look

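The change between Cartpt-rich and other spots differed between the groups, by the interaction test of edgeR with adjusted p-values over 16617 genes, for each of 16 named genes. Values are log2 differences, knockout minus control. Of the knockout Cartpt-rich spots, 38 of 46 and 44 of 45 were Ucn spots. With the class drawn from spots without Ucn, Nkx2-1 (-0.22, adjusted p = 0.904), Slc30a3 (3.0, adjusted p = 0.113) and Foxb1 (0.92, adjusted p = 0.235) were no longer called, while the other 13 kept direction and call. Higher in knockouts were Nkx6-1 by 5.60, C1ql2, another secreted C1q-like protein, by 5.27, Chrna4, a nicotinic receptor subunit, by 5.14, Syt2, a synaptotagmin, by 4.20, and Pcp4l1 by 4.09. Slc30a3, the zinc transporter of synaptic vesicles, was lower in the Cartpt-rich spots of both groups, by 6.49 in controls and 1.58 in knockouts, so its difference of 4.91 is a smaller fall. Igkc and Igha had no UMI in the control Cartpt-rich spots and 107 and 72 UMIs in those of knockout 1, against 2 and 1 in knockout 2 (adjusted p = 2.84e-05 and 0.00315).

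Lower in knockouts were Tac2, the precursor of neurokinin B, with a difference of -8.53, Nkx2-1 with -7.63, Asb4 with -7.39, Npy with -7.01 and Calcr, the calcitonin receptor, with -6.82. Crabp1, Foxb1 and Rax had no UMI in the Cartpt-rich spots of either knockout section, so no fold is given. In controls they had 132 and 220, 42 and 17, and 38 and 12 UMIs (adjusted p = 1.22e-24, 3.78e-14 and 0.000125).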

How the results depend on the processing

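Whole-section calls numbered 6739 and became 3418 with every spot thinned to 1000 UMIs. They were 5813 with a replicate block, 8176 with the crossed replicate block (added after seeing the data), and from 4924 to 7182 with each library left out. The Ucn-spot calls, 4050, became 1929 with DESeq2. All of these 1929 were among the 4050. Leaving out a knockout library left no residual degrees of freedom there, so this alternative was not run and each section's values stand in the report. Cartpt-rich differences, 1915, became 3293 with the top 5% of spots, 932 with DESeq2 and 1186 with the class drawn from spots without Ucn, and ranged from 975 (without knockout 1) to 1437 with each library left out. Without knockout 2 there were 1002.

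The knockout Ucn level of 15.4 CPM became 11.5 CPM with spots thinned to 1000 UMIs and 12.8 CPM without the highest Ucn spot, and was 14.2 to 16.7 CPM with each library left out. The Cartpt ratio of 4.85 became 3.27 with thinning and 0.991 with Ucn-bearing spots left out, and ranged from 3.77 to 5.93 with each library left out. Ucn spots held 90.6% of Ucn on average, and 85.2% when defined by at least 5 UMIs. The Cartpt log2 ratio in Ucn spots stayed between 6.85 and 7.87 under its alternatives.

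Of the named genes' Cartpt-rich differences, 3 turned sign. With the top 5% of spots Foxb1 became 1.26 and Slc30a3 -1.51. With the class drawn from spots without Ucn, Foxb1 became 0.92 and Dmrta2 -1.75, neither of them called. The causes were not tested. Across the alternatives, 807 of 851 values for the whole section, 511 of 546 for Ucn spots and 182 of 207 for the Cartpt-rich differences of named genes kept their direction and call.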
